A study of Apostichopus japonicus with 9 samples.

Results

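The miR-100 and miR-125 names are 7 microRNA (miRNA) ids, miR-125b-5p, miR-125-5p, miR-125c, miR-125b, miR-125-3p, miR-100b-5p and miR-100, out of 409 ids in the deposited tables on sea cucumber (Apostichopus japonicus) intestine. They were taken by id from the authors' tables, and all 7 were found, 6 of them in the table for 48 h of heat and 1 in the table for 6 h. Sea cucumbers weighing 100 to 120 g formed a control group under normal conditions and groups under heat stress at 26 °C, sampled at 6 h and at 48 h, with 3 individuals and 3 small RNA libraries in each group. No genotype, age or control temperature is given in the sources used here, and both heat groups were set against the same control. An id is the known miRNA to which the authors assigned reads, mostly under names used in other species, and the tables hold no sequences.

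In many bilaterian animals the genes of miR-100, let-7 and miR-125 lie close together, and in Drosophila all of them are cut from one primary transcript. miR-125 is the relative of the Caenorhabditis elegans lin-4, which with let-7 times the passage from one developmental stage to the next, and lin-28 mRNA is a target of lin-4 and let-7 in that worm. miR-100 belongs to the miR-10 family and in mammals represses mTOR, a kinase of growth control. The suffix 5p or 3p names the arm of the hairpin from which a mature miRNA comes, and usually one arm is kept while the other is degraded. Whether these genes lie together in this species was not examined.

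The authors gave 1 read count per group, pooled over its 3 libraries, and 1 mean level in RPM (reads of the miRNA scaled to M reads in the library, M for mega), so no SD between animals can be had. Library totals recovered from these columns were 91.6 to 145 M reads in the control, 54.4 to 96.9 M reads at 6 h and 57.2 to 113 M reads at 48 h. In the tables the smallest level of a single library was 20.01 RPM, so a listed 0 means less than about 20 RPM in every library. A miRNA appears in a table only if its pooled counts, each divided by the pooled total, lay more than 2-fold apart from the control. The authors' deposited q-values are small throughout, the largest being 2.9e-158 at 6 h and 1.8e-183 at 48 h. Being based on pooled reads, they reflect counting error alone and say nothing of how far animals differed, and no test of replicates was possible. Of the marker miRNAs of vertebrate intestinal epithelium, only miR-194-5p was listed at either time, at 0 in the control, 51.6 RPM at 6 h and 9.87 RPM at 48 h, and miRNAs that differed less than 2-fold have no row.

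After 48 h of heat the 4 abundant miR-125 names stood higher than in the control and miR-100b-5p stood lower. miR-125b-5p averaged 2530 RPM at 48 h and 1017 RPM in the control, 2.49-fold higher. miR-125-5p averaged 2482 RPM at 48 h and 1075 RPM in the control, 2.31-fold higher. miR-100b-5p, in contrast, averaged 17.3 RPM at 48 h and 70.4 RPM in the control, 4.07-fold lower. By the rule of listing beyond 2-fold with a q-value under 0.05 in the authors' deposited table, 5 of the 7 names were higher at 48 h and 1 was lower, where 69.9% of the 415 miRNAs tested were called, 43.1% higher and 26.7% lower. At 6 h the same rule called 1 of the 7, miR-125-3p, as lower, where 68.2% of 403 tested were called, 38.7% higher and 29.5% lower. Each name is in the list because at least 1 table holds it, so these counts cannot be read as an excess over the background.

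**Figure D1:**
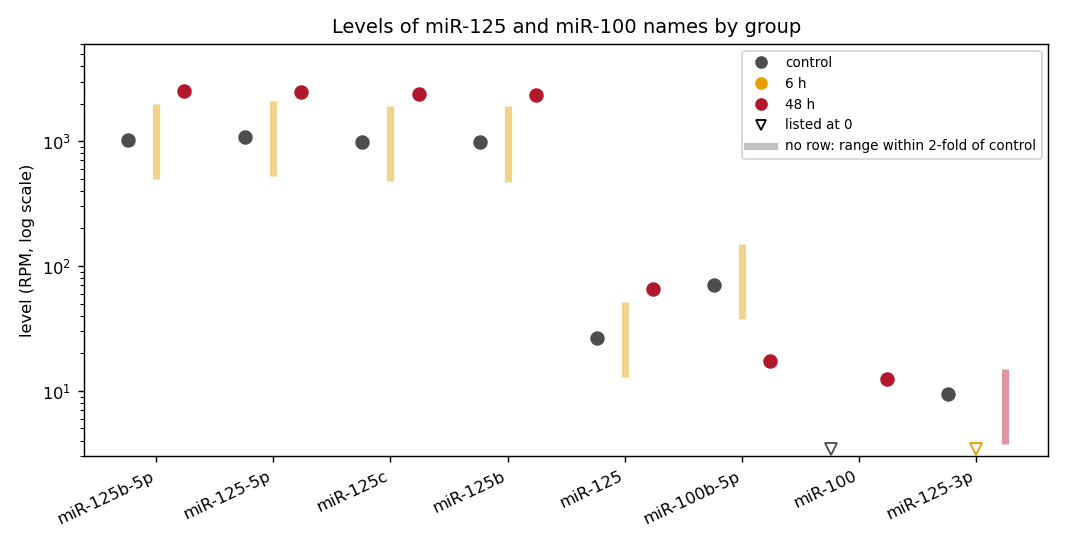
Levels in RPM on a log axis for the 7 names and for miR-125, a further id outside the list; dots are the authors' group means, open triangles mark a listed 0, and shaded bars give the pooled level that a miRNA without a row can have within 2-fold of the control. The dots at 48 h lie above the control for the abundant miR-125 names and below it for miR-100b-5p; miR-100 had no row at 6 h and 0 in the control, so it has no bar.

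The 4 abundant miR-125 names were counted as 1 signal. The remaining pair of them, miR-125c and miR-125b, averaged 2385 and 2335 RPM at 48 h, against 990 and 976 RPM in the control. Pooled reads for miR-125b-5p numbered 536233 at 48 h and 343818 in the control. Those for miR-125-5p numbered 525382 at 48 h and 360330 in the control. Over the 6 pairs of these names, counts differed by at most 7.95% at 48 h and 8.92% in the control, close enough that they were treated as mostly the same reads given to several names. Joined in this way, the names listed at 48 h come to 3, the joined miR-125 signal, miR-100b-5p and miR-100. The order of the 4 names was not the same in both groups: miR-125b-5p was the highest at 48 h and miR-125-5p in the control, and the authors' log2 ratios ran from 1.12 for miR-125-5p to 1.21 for miR-125b-5p.

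A fainter id, miR-125, which carries no letter or arm and is not among the 7, moved by nearly the same factor. It averaged 66.0 RPM at 48 h and 26.7 RPM in the control, 2.47-fold higher. miR-125b-5p exceeded it 38.3-fold at 48 h and 38.1-fold in the control, so both ids kept nearly the same proportion in both groups. Its 14218 reads at 48 h and 8965 in the control are too few for it to hold the same reads as the abundant names. When a library that could lie below 20 RPM in the control was set to 20 RPM, the ratio of miR-125 came to 1.98, just under 2-fold.

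Count and mean together limit how the reads of a group can have been spread over its 3 libraries. A pooled count divided by the summed level is the average library total weighted by level. For the 4 abundant miR-125 names it lay between 70.5 and 70.6 M reads at 48 h and between 112 and 113 M reads in the control. Both ranges lie between library totals, so each name had reads in at least 2 libraries of each group. In the deepest 48 h library, of 113 M reads, miR-125b-5p must have stood between 1292 and 1819 RPM. In the deepest control library, of 145 M reads, it must have stood between 311 and 1209 RPM. The other 48 h libraries are not fixed one by one, and the highest library of that group held between 39.7% and 83.0% of the summed level.

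Some orderings hold for every placement of the reads that the columns allow. The highest 48 h library had at least 3013 RPM of miR-125b-5p, while no control library can have had more than 2740 RPM. The same held for miR-125c, with at least 2851 RPM against at most 2712 RPM, and for miR-125b, with at least 2793 RPM against at most 2678 RPM. It did not hold for miR-125-5p, with at least 2961 RPM at 48 h against at most 2986 RPM in the control. Whether all 48 h libraries lay above all control libraries cannot be told, since one 48 h library may have had no reads of these names. Without the highest 48 h library, the mean of miR-125b-5p over the others would lie between 646 and 2289 RPM, which spans its control mean of 1017 RPM. The smallest coefficient of variation that the columns allow for miR-125b-5p was 32.9% at 48 h and 13.6% in the control.

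**Figure D2:**
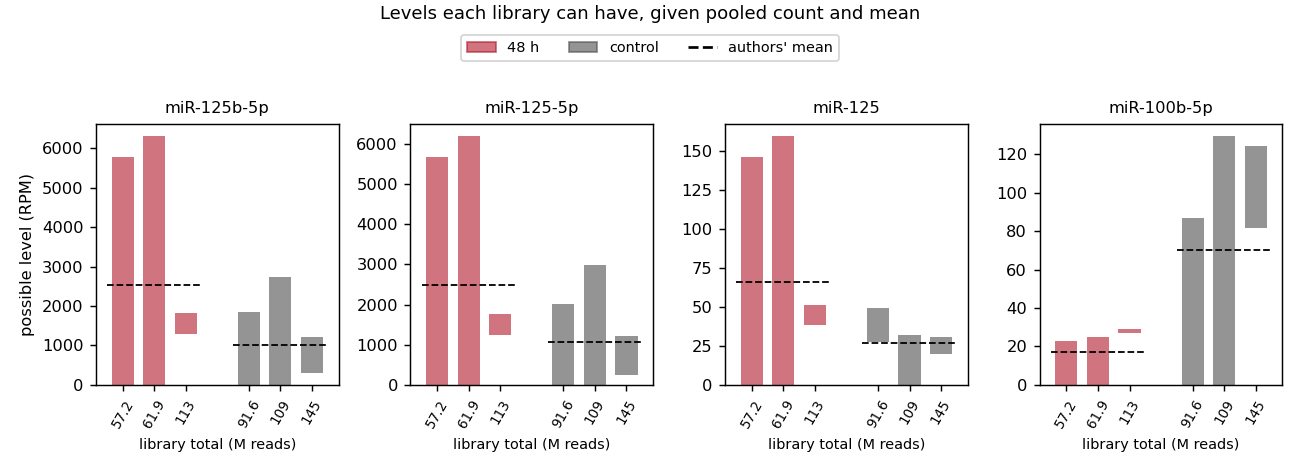
Bars span the RPM that each library, named by its total in M reads, can have had of 4 ids given the pooled count and the mean of its group, with dashed lines at the authors' means; libraries of 1 group are bound together, so they cannot all lie at the tops of their bars. For miR-125b-5p the deepest 48 h library lies between 1292 and 1819 RPM and the deepest control library between 311 and 1209 RPM, and for miR-100b-5p no 48 h library can exceed 29.1 RPM.

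miR-100b-5p was the listed miR-100 name with reads in both groups. Its pooled reads numbered 4602 at 48 h and 25973 in the control, and the authors' deposited log2 ratio was -1.92. With at least 20 RPM in each library that has any, the summed level at 48 h is too small for 3 libraries, and exactly 2 had reads. The deepest of these stood between 27.0 and 29.1 RPM, and the other at 22.8 or 24.9 RPM, depending on which library it was. In the control the deepest library stood between 81.9 and 124 RPM, and the highest of the 3 had at least 93.6 RPM. No 48 h library reached the level of the deepest control library, although a control library with less than 20 RPM is possible, so overlap between the groups cannot be told. Without the highest control library, the control mean over the others would lie between 40.9 and 58.8 RPM, above the 17.3 RPM at 48 h in either case.

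The id miR-100 had 0 in the control and 2149 reads at 48 h, all from the library of 57.2 M reads, where it stood at 37.6 RPM. Its 48 h mean of 12.5 RPM lies below the 20 RPM that a control library at 0 may have had, so no fold is given. The authors' deposited log2 ratio of 12.64 rests on 0.5 reads in place of the control's 0. Summed, the miR-100 ids had 29.8 RPM at 48 h and 70.4 RPM in the control, 2.36-fold lower. This sum takes a library at 0 as 0, although it may have had up to 20 RPM, so the size of the fall is not fixed. Whether reads moved between these ids was not tested.

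The partner arm of miR-125 was scarce. miR-125-3p had 0 reads at 6 h and 2581 in the control, all from the library of 91.6 M reads, where it stood at 28.2 RPM. The control mean of 9.40 RPM lies below 20 RPM, so no fold is given here either, and the call at 6 h rests on 1 animal of the control. In the control, the mean of miR-125b-5p exceeded that of miR-125-3p by between 44.7- and 108-fold, depending on whether the libraries at 0 are taken at 20 RPM or at 0, on levels that can differ between sequences through adapter ligation.

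None of the 7 names is in both tables, so 48 h and 6 h can be set side by side only within limits. If the tables list every miRNA beyond 2-fold, miR-125b-5p lay between 498 and 1990 RPM on the pooled scale at 6 h, around a control of 995 RPM on that scale. miR-100b-5p lay between 37.6 and 150 RPM at 6 h on the same scale, around 75.2 RPM. For miR-125-3p the absence of a row at 48 h allows between 1144 and 3472 reads, the lower limit being 20 RPM in the smallest library. miR-100, without a row at 6 h and at 0 in the control, would have had less than 20 RPM in every 6 h library. A 6 h change of less than 2-fold in any of these names would not appear in the tables.

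Among the 73 miRNAs listed at 48 h with reads in both groups, the miR-125 names were high in level and modest in ratio. Among the 290 ids at 48 h, 194 of them with reads, miR-125b-5p ranked 10th by level. It ranked 13th among the 409 ids with a control value, 202 of them with reads, miRNAs within 2-fold having no row. Its log2 ratio was exceeded by 40 of the 58 higher ids with reads in both groups, whose median was 1.32, against a median of 1.17 over the 4 miR-125 names. miR-100b-5p ranked 117th by level at 48 h and 53rd in the control. Its fall was exceeded by 4 of the 15 lower ids with reads in both groups, whose median was -1.39. On a stricter call, which gave 20 RPM to each library of the lower group that may have had no reads, the 4 abundant miR-125 names and miR-100b-5p remained beyond 2-fold and miR-100 did not, where 14.5% of the tested miRNAs passed as higher and 6.99% as lower. At 6 h miR-125-3p did not pass it, where 7.20% of the tested miRNAs passed as lower. Under that call miR-100b-5p was 2.94-fold lower and miR-125b-5p 2.47-fold higher.

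**Figure D3:**
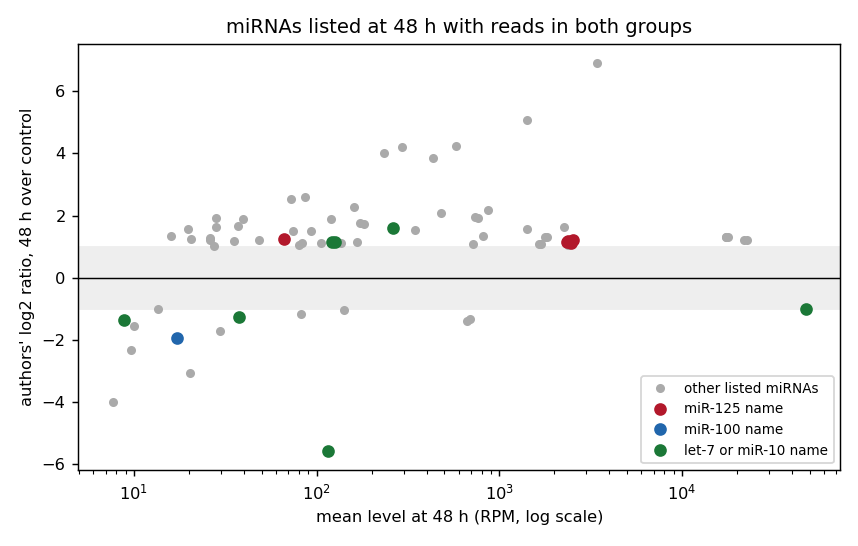
Each dot is 1 of the 73 miRNAs listed at 48 h with reads in both groups, by its mean level at 48 h (RPM, log axis) and the authors' log2 ratio of 48 h over control; the grey band marks ratios within 2-fold. The 4 abundant miR-125 names sit together near 1.17 on the log2 axis at levels from 2335 to 2530 RPM, and miR-100b-5p sits at -1.92 and 17.3 RPM.

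The 48 h ratios nearest to the miR-125 signal, among 128 ids with a row at 48 h alone, were those of miR-1c-3p, a muscle miRNA, and of miR-71c-5p and miR-71, whose family acts in lifespan in Caenorhabditis elegans. They differed from it by 0.01, 0.04 and 0.05 on the log2 scale, over 1 comparison of group values. Ids that also have a row at 6 h were not candidates, and some lay as near. At 48 h miR-222-3p was closer to the signal than any of these ids. let-7a-5p and let-7b-5p, which may share reads, were closer than miR-71c-5p and miR-71, but neither passed the stricter call at 48 h. let-7e was higher by a larger ratio, and let-7d and let-7c-3p were lower. miR-71c-5p averaged 22784 RPM at 48 h and 9299 RPM in the control. Of the marker lists of other tissues at 48 h, where 61.7% of all listed ids were higher, the muscle ids miR-1 and miR-133 had 5 of 7 listed ids higher, with a summed level of 52668 RPM at 48 h and 21303 RPM in the control. All 5 listed neuronal ids of miR-124 and miR-9 were higher, at 3661 RPM at 48 h and 1396 RPM in the control in sum. The epithelial ids miR-205-5p and miR-429 summed to 1458 RPM at 48 h and 0 in the control. miR-8, of the same list, had no row at 48 h, and at 6 h it had 0 against 69.8 RPM in the control. At 6 h, where 56.7% of all listed ids were higher, the muscle id miR-133-5p was listed as lower, at 0 against 9.32 RPM in the control. Of 3 neuronal ids listed at 6 h, 2 were higher and 1 lower. The listed id of ciliated or sensory cells, miR-96-3p, was listed as lower, at 0 at 48 h and 11.3 RPM in the control, and no blood cell marker was listed. The control means of miR-133-5p and miR-96-3p lie below 20 RPM, which a library at 0 may have had. Neither direction is therefore fixed. Ids of 1 number may share reads in these sums. A different share of cell types and a different level per cell cannot be told apart in whole intestine, and the part of muscle, nerve or epithelium in the miR-125 values was not tested. For miR-100b-5p the nearest ratios among the same 128 ids, which leave out any id that also has a row at 6 h, were those of miR-33 at -1.54, of miR-10b, a member of the same family as miR-100, at -1.25, and of miR-29b at -1.02. For miR-100 and miR-125-3p the nearest ids, such as miR-1683 and miR-6761-3p, also had a group at 0, so their ratios follow from a pooled count and the stand-in for 0.

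The relatives of the miR-100 and miR-125 names were listed in both directions. Of the let-7 family names, 6 were higher and 8 lower at 6 h, where 56.7% of all listed ids were higher. At 48 h 5 were higher and 4 lower, where 61.7% of all listed ids were higher. Their median log2 ratios were -1.19 and 1.14, beside 1.71 and 1.55 over all ids listed. On the stricter call 3 let-7 family names were higher and 3 lower at 6 h, and 2 higher and 2 lower at 48 h. Unlike the miR-125 names, these names were not joined, so the counts may hold the same reads more than once. let-7a-5p and let-7b-5p had 39526 and 39974 reads at 6 h, and 18898 and 19607 in the control. let-7c-2-3p, let-7c-3p and let-7d-3p had 1598, 1503 and 1593 reads at 6 h, and 5735, 5671 and 5675 in the control. No lin-4 or miR-99 id was listed. let-7e averaged 93.1 RPM in the control, 240 RPM at 6 h and 261 RPM at 48 h. let-7a-5p averaged 60.7 RPM in the control, 165 RPM at 6 h and 122 RPM at 48 h. In the other direction, let-7d averaged 3375 RPM in the control, 0 at 6 h and 115 RPM at 48 h, with at least 97.4% of its control level in 1 library. miR-84-5p, of the nematode let-7 family, averaged 6756 RPM in the control and 0 at both heat times. let-7e and let-7a-5p were thus higher beyond 2-fold on pooled counts at both times, while the abundant miR-125 names had a row at 48 h alone. The level of miR-125b-5p relative to let-7e was 9.71 at 48 h and 10.9 in the control, but relative to let-7d it was 22.0 at 48 h and 0.301 in the control, so the comparison with let-7 depends on the name taken. Relative to miR-100b-5p it was 146 at 48 h and 14.4 in the control. In the family of miR-100, miR-10b was lower at 48 h with 37.6 RPM against 112 RPM in the control, 2.98-fold on the means. miR-10c-5p was also lower at 48 h, with 47665 RPM against 127756 RPM in the control, and nearly all of that 48 h level, at least 99.9%, was in 1 library. At 6 h miR-10c-5p averaged 97.7 RPM, and miR-10b had no row at that time.

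**Figure D4:**
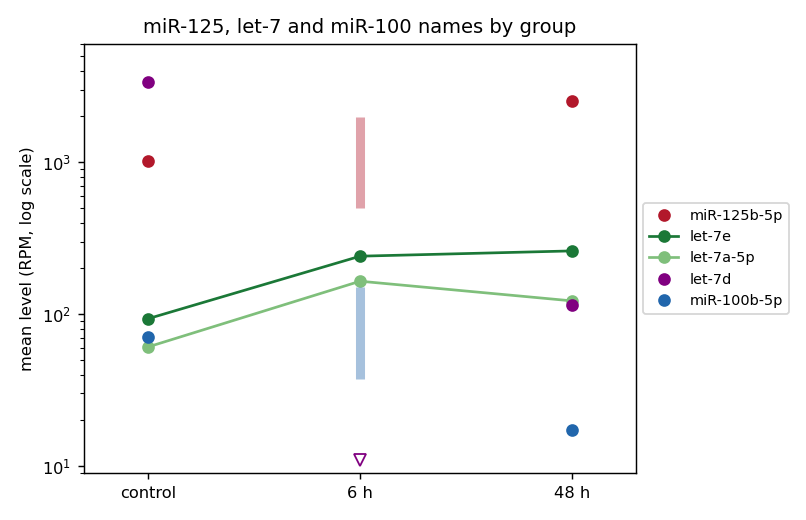
Group means in RPM on a log axis for miR-125b-5p, let-7e, let-7a-5p, let-7d and miR-100b-5p; the open triangle marks a listed 0 for let-7d, and shaded bars at 6 h give the pooled level within 2-fold of the control for names without a row at that time. At 48 h miR-125b-5p, let-7e and let-7a-5p are above the control, while let-7d, at 115 RPM against 3375 RPM in the control, and miR-100b-5p, at 17.3 RPM against 70.4 RPM in the control, are below it.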

How the data were processed

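RNA was taken from each intestine with Trizol, the fraction from 18 to 30 nt was selected on a gel, and libraries were sequenced on a HiSeq, per the labels' protocols. No source used here names the aligner, reference build or miRNA database. The authors deposited 1 table per heat group. Its columns, per the file headers, are a count of reads per group, an expression value, a log2 ratio, and a p-value and q-value from a test that is not named. Tested on the values, the authors' expression value is the mean RPM over 3 libraries, with 0.001 for a library at 0, and the log2 ratio divides pooled counts by pooled totals, with 0.5 for a count of 0.

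Library totals are the 3 densest values of count over summed RPM in a group. Their sums matched the constant of the authors' log2 ratio within 0.0127% at 6 h and 0.0271% at 48 h. All placements of a count and mean on these totals were enumerated, each library holding 0 or at least 20 RPM, with Python 3.11.15 and numpy 2.4.6. The enumeration was tested on data simulated with the recovered totals and the same 20 RPM minimum. Within an allowance for rounding, the bounds held the simulated levels of all 171 miRNAs in the control, 159 at 6 h and 169 at 48 h. Because the minimum was built in, the simulation cannot tell whether it holds in the real libraries. The q-to-p ratios gave 403 and 415 tested miRNAs. Ids with 1 number were joined where their counts in each group lay within 15% of each other. The stricter call took a library of the lower group that could lie below 20 RPM as 20 RPM and asked for 2-fold. The design's fallback for group values was used, a call at the authors' q-value under 0.05, so no model was fitted. The members, lists and tests were chosen with earlier results of these data known. Named ids are the 7 names, let-7, lin-4 and miR-10 relatives, the 3 nearest log2 ratios per name or joined set, and marker ids; miR-125 was added after its values were seen.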

Additional observations from a re-analysis of the deposited data

How the results depend on the processing

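No paired analysis was possible because the tables hold 1 pooled value per group, so replicate numbers have no columns, and leaving out a numbered replicate was not run for the same reason. The count of names called at 48 h, 6, was 6 with a q-value under 0.001, with ratios of mean levels and with totals that omit the 5 highest listed miRNAs, and 5 by the stricter call. It was 1 at a fold limit of 4, 3 with ids within 15% or 30% joined, and 4 within 5%. The count at 6 h, 1, was 0 by the stricter call. With the 48 h library of the highest level left out and its share as large as the columns allow, a choice that uses the least favourable placement, the log2 ratio was -0.65 for miR-125b-5p, -0.78 for miR-125-5p, -0.73 for miR-125c and -0.74 for miR-125b. With its share as small as allowed, an alternative added after seeing the data, the ratio stayed above 2-fold for these 4 names. For miR-100b-5p, higher in the control, the library left out was the highest of the control. Its log2 ratio stayed beyond 2-fold either way, from -1.24 to -1.77. The values at 0 decide the ratio of the other 2 names. Here a value was put in each library of the group at 0 only, and empty libraries of the group with reads stayed at 0. With 20 RPM, also added after seeing the data and the same as the stricter ratio, miR-100 had a log2 ratio of -0.67 at 48 h. miR-125-3p had one of 1.09 at 6 h. With 10 RPM the 2 names had 0.33 and 0.090, and with 40 RPM -1.68 and 2.09. Filling both groups was not run, so these values do not settle the sign. Taken over all settings, 35 of these values kept their direction and their side of 2-fold or lay within 1.5 times the count, 4 counts moved further, 1 ratio lost its call and 11 turned sign. These 11 are not separate reversals. They came from miR-100 and miR-125-3p with 1 group filled, the 20 RPM and stricter settings being the same value. The others were the 4 miR-125 names, counted as 1 signal, without their highest 48 h library. The ratio of 48 h over 6 h could not be computed because no name has a row in both tables. Depth does not limit the abundant names, but a library below 20 RPM cannot be told from one at 0.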
